A study of Mus musculus with 24 samples.

Results

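The synaptic vesicle and secretory granule genes were taken as 42 named mouse genes that encode the proteins of transmitter vesicles and hormone granules, out of 26260 genes in the largest deposited table. A gene entered by its symbol, from a list drawn up with earlier results of these data known. All 42 were found once in each of the 4 deposited tables, annotated as protein-coding. They were followed in whole guts of mouse embryos of embryonic day 12.5, in which the study asked how Ret and Sema3d act, alone and together. Ret null guts were homozygous null for Ret, the receptor tyrosine kinase that enteric neural crest cells need, and Sema3d null guts were homozygous null for Sema3d, a secreted guidance semaphorin. Double null guts were homozygous null for both genes, and wildtype guts carried neither null. Each genotype had 6 guts, 3 female and 3 male, and all 24 embryos were of mixed C57BL/6, 129/Sv and C3H background. No cells were sorted, so each value is an average over muscle, epithelium, vessels, mesenchyme and nerve cells. The labels do not say which embryos were littermates, and p-values measure the spread between these guts.

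Neurons release transmitter from small clear synaptic vesicles and neuropeptides from dense-core granules, and endocrine cells release hormones from granules by much of the same machinery. A vesicle is held near the membrane and primed by scaffold and priming proteins of the active zone. SNARE proteins on the vesicle and the membrane then zip together, complexins hold them ready, and synaptotagmins trigger fusion when calcium enters. Afterwards NSF and its SNAP adaptors pull the SNAREs apart, and dynamin pinches new vesicles from the membrane. In the developing gut the machinery is best known from enteric neurons, which descend from migrating neural crest cells, while enteroendocrine cells of the epithelium and sympathetic nerve cells use overlapping sets. Several of the SNARE and recycling proteins also belong to families that work in most secretory cells.

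The stretches of DNA before 6 of the genes are printed because they show sequence elements that some members share and hold genes that were called as well as genes that were not. They come from the RefSeq promoter table on build GRCm38.p6, each running 5′ to 3′ on the gene's strand over the 250 bases before the transcription start. Syn1 is at chrX:20920919-20921168, minus strand. Chgb is at chr2:132781392-132781641, plus strand. Scg2 is at chr1:79440027-79440276, minus strand. Scg3 is at chr9:75684057-75684306, minus strand. Cplx1 is at chr5:108550028-108550277, minus strand. Vamp1 is at chr6:125215331-125215580, plus strand. Capitals mark the cyclic AMP response element (CRE) TGACGTCA, its core TGACG, the E-box CAGCTG, and the best match to RE1, the element bound by the repressor REST, where it had at most 2 mismatches.
Syn1: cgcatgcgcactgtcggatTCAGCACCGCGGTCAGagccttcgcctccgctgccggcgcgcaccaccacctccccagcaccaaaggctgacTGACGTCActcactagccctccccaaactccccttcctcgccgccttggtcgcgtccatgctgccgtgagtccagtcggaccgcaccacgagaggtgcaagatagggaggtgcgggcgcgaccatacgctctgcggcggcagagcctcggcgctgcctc
Chgb: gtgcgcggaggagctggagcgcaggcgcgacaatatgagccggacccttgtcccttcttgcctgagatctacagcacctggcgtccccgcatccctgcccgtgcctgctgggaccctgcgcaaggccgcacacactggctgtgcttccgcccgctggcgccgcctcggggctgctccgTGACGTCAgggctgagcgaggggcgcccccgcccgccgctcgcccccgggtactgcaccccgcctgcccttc
Scg2: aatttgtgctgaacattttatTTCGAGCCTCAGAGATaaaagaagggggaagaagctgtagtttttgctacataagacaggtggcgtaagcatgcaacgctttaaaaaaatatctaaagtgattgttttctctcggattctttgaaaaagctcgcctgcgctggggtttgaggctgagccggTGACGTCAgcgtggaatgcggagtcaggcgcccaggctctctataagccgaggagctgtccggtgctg
Scg3: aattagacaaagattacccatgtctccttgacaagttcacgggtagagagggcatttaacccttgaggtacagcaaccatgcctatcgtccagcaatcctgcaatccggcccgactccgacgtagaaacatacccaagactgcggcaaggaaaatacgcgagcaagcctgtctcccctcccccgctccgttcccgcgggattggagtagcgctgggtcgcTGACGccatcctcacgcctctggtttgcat
Cplx1: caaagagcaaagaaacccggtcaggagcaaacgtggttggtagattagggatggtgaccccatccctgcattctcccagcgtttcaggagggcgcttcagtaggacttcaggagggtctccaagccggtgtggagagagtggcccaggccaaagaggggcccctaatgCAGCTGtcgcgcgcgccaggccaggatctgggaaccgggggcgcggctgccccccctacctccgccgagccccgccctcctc
Vamp1: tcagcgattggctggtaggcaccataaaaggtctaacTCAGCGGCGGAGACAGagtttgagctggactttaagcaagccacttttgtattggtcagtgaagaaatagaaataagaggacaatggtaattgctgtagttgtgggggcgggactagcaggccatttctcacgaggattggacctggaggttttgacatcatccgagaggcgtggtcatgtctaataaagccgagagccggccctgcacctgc

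An exact CRE stood in 3 of the 34 members with a promoter in the table. It lay 159 to 152 bases before the start of Syn1, 72 to 65 before Chgb and 68 to 61 before Scg2. An RE1 match with 1 mismatch lay in Syn1, 231 to 216 bases before the start, and in Vamp1, 213 to 198 bases before it. Syn1 and Chgb were lower in Ret null guts, and Scg2 and Vamp1 did not pass the test there. The interval of Vamp1 in the authors' deposited Ret null table ran from -0.28 to 0.21 on the log2 scale. That of Scg2, -0.94 to 0.68, included the change of Chgb (-0.70), so a difference between Chgb and Scg2 is not shown. The interval of Syn1, -2.74 to -1.57, lay below that of Scg2 and that of Chgb (-1.08 to -0.32), with no direct test between these genes.

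The targeted genes were examined first. In the 24-gut fit, Ret had a level of 4.72 normalised counts in Ret null, 1328 in Sema3d null, 1.15 in double null and 1523 in wildtype guts. Sema3d had 677 in Ret null, 389 in Sema3d null, 396 in double null and 815 in wildtype guts, so its null guts kept transcript counts that do not show which exons remained. Here a level is the authors' fitted mean for a genotype, averaged over the sexes, in counts normalised for library size. The deposited tables hold these fits and no value per gut, so the spread among the guts of a genotype is seen only through the error of each log2 change. That error was derived from the deposited deviances and is written after ±, and a 95% interval was set from it. Library depth is unknown from these tables. A gene was called when its adjusted p from the authors' DESeq likelihood ratio test, corrected over the whole table, was below 0.05.

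In Ret null guts 20 of the 42 genes were lower than in wildtype guts and 0 were higher, where 2.27% of the 24602 genes in that table were lower and 0.386% higher. The members' median log2 change was -0.62, beside 0.01 over the 12242 genes with a level of at least 50. Changes ran from -2.92 for Cplx1 to 0.20 for Sv2a, and 36 of 42 were negative. An unadjusted p below 0.05 was reached by 26 members, and by 8.43% of all genes. Summed over the 42 genes, the fitted level was 5658 normalised counts in Ret null guts and 6950 in wildtype guts, or 81.4%. The genes divided: 7 fell to below a log2 change of -2, while 13 had an interval that lay wholly above -0.5. In RNA from whole guts, fewer cells of a type and less RNA per cell cannot be told apart.

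**Figure D1:**
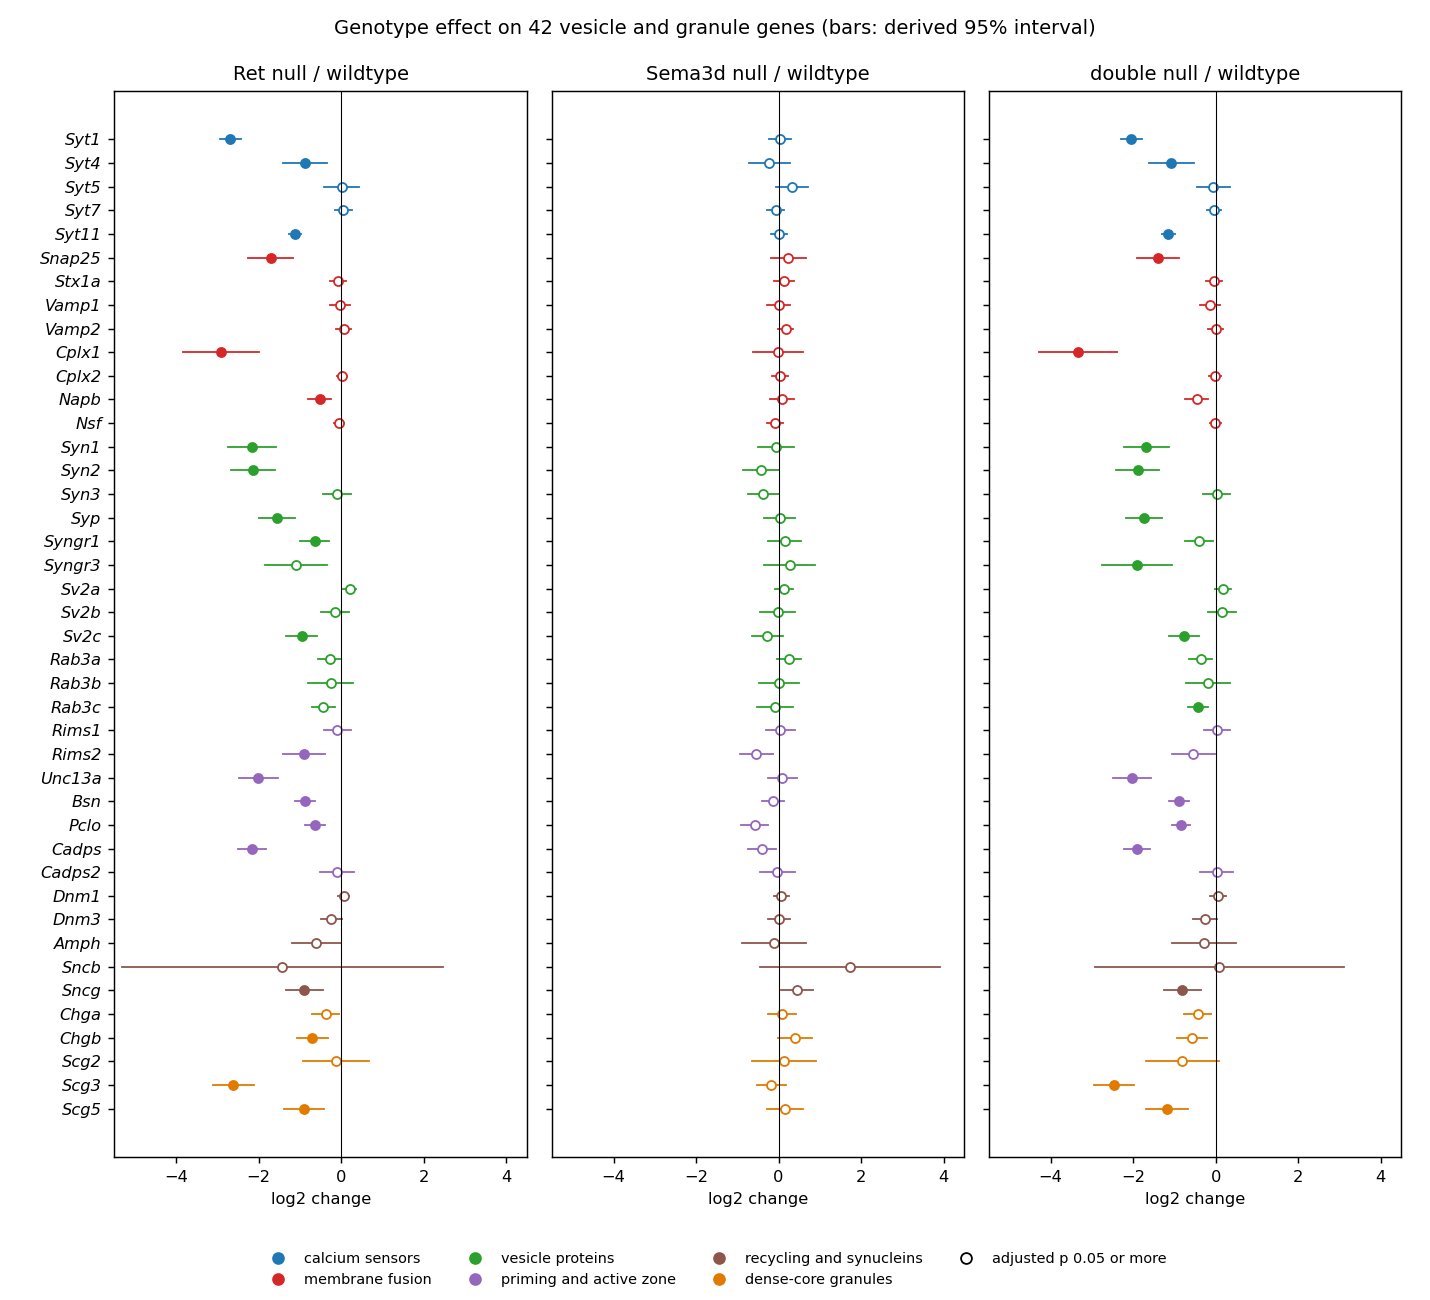
Log2 change of each of the 42 genes (rows, coloured by role) in Ret null, Sema3d null and double null over wildtype guts; points are the deposited coefficients, bars the derived 95% interval, filled points have an adjusted p below 0.05. Filled points lie left of 0 for 20 genes in Ret null guts and 18 in the double null, and the Sema3d null panel has no filled point.

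The synaptotagmins, the family of the vesicle calcium sensors, divided: 3 of 5 were lower in both mutants. Syt1 (ENSMUSG00000035864.14, chromosome 10, GRCm38 108497650 to 109010982, minus strand), the calcium sensor for fast transmitter release, had a fitted level of 37.1 in Ret null, 245 in Sema3d null, 56.8 in double null and 239 in wildtype guts. The guts that lacked Ret were low and both genotypes with Ret were high. Its log2 change in the authors' deposited tables was -2.69 ± 0.13 in Ret null guts and -2.05 ± 0.13 in the double null, with adjusted p of 9.04e-92 and 1.71e-55 recomputed from the DESeq deviances where the tables list 0. Syt11, a synaptotagmin that does not bind calcium, had the highest level per kilobase of these synaptotagmins in wildtype guts, and stood at 245 in Ret null, 534 in Sema3d null, 240 in double null and 532 in wildtype guts. It changed by -1.12 ± 0.08 in Ret null guts and -1.15 ± 0.08 in the double null on the log2 scale of the authors' deposited tables (DESeq adjusted p 1.63e-45 and 1.96e-46). Syt4, found on dense-core granules, had 15.8 in Ret null, 24.9 in Sema3d null, 13.8 in double null and 29.1 in wildtype guts. It changed by -0.88 ± 0.27 in Ret null guts and -1.08 ± 0.28 in the double null, per the authors' deposited tables (DESeq adjusted p 0.0444 and 0.00610).

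Syt7, a slow, high-affinity calcium sensor, was not called, with 464 normalised counts in Ret null, 425 in Sema3d null, 434 in double null and 448 in wildtype guts. The interval of its log2 change in the authors' deposited tables ran from -0.16 to 0.26 in Ret null and from -0.22 to 0.13 in double null guts. Syt5 had 40.5 in Ret null, 50.5 in Sema3d null, 38.5 in double null and 40.3 in wildtype guts, with an interval from -0.41 to 0.43 in the authors' deposited Ret null table. The summed level of the 5 synaptotagmins, drawn in the plots as calcium sensors with Syt11 among them, was 62.2% of wildtype in Ret null guts and 60.8% in double null guts, and the test called Syt1, Syt4 and Syt11 in both.

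The membrane fusion genes held both the member with the largest fall and several with narrow intervals around 0. Cplx1 (ENSMUSG00000033615.9, chromosome 5, GRCm38 108518554 to 108550024, minus strand), a complexin that clamps and primes the SNARE complex, had 2.36 normalised counts in Ret null, 17.8 in Sema3d null, 1.78 in double null and 17.9 in wildtype guts. Its log2 change was -2.92 ± 0.47 in Ret null guts and -3.34 ± 0.49 in the double null, per the authors' deposited tables (DESeq adjusted p 4.29e-08 and 9.78e-10). Its error was the widest among the members called in Ret null guts. Cplx2, the other complexin here, had 619 in Ret null, 627 in Sema3d null, 605 in double null and 614 in wildtype guts. The interval of its change in the authors' deposited tables was -0.12 to 0.14 in Ret null and -0.17 to 0.13 in double null guts, far from that of Cplx1.

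Snap25 (ENSMUSG00000027273.13, chromosome 2, GRCm38 136713453 to 136782428, plus strand), the neuronal SNARE of the plasma membrane, had 11.1 in Ret null, 43.0 in Sema3d null, 13.8 in double null and 36.4 in wildtype guts. The authors' deposited tables give it a log2 change of -1.71 ± 0.28 in Ret null guts and -1.40 ± 0.26 in the double null (DESeq adjusted p 5.94e-08 and 8.23e-06). Its SNARE partners were not called. Stx1a, the syntaxin of the plasma membrane, had 175 in Ret null, 202 in Sema3d null, 179 in double null and 185 in wildtype guts. Vamp2, the main vesicle SNARE of neurons, had 840 in Ret null, 913 in Sema3d null, 806 in double null and 809 in wildtype guts. In the authors' deposited Ret null table their log2 intervals ran from -0.28 to 0.12 for Stx1a and from -0.12 to 0.23 for Vamp2.

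Vamp1, a vesicle SNARE close to Vamp2, had 109 in Ret null, 112 in Sema3d null, 101 in double null and 111 in wildtype guts and was not called. Nsf, the ATPase that takes SNARE complexes apart, had 614 in Ret null, 601 in Sema3d null, 636 in double null and 640 in wildtype guts and was also not called. Napb, the beta-SNAP adaptor through which NSF binds the complex, had 69.3 in Ret null, 105 in Sema3d null, 72.5 in double null and 99.5 in wildtype guts. It changed by -0.52 ± 0.14 in Ret null guts (DESeq adjusted p 0.0118) in the authors' deposited table, while in double null guts its change of -0.46 ± 0.14 had an adjusted p of 0.0537. Vamp2, Nsf and Cplx2 were not called, and the 8 fusion genes summed to 97.1% of wildtype in Ret null guts and 96.1% in the double null.

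Of the 12 vesicle proteins, 5 were lower in Ret null guts and 6 in the double null. The synapsins tether vesicles to each other and to the cytoskeleton. Syn1 (ENSMUSG00000037217.15, chromosome X, GRCm38 20860511 to 20921004, minus strand) had 7.94 in Ret null, 33.9 in Sema3d null, 11.1 in double null and 35.5 in wildtype guts. Syn2 had 9.56 in Ret null, 31.5 in Sema3d null, 11.2 in double null and 42.5 in wildtype guts. Both fell in Ret null guts, with a log2 change in the authors' deposited table of -2.16 ± 0.30 for Syn1 and -2.14 ± 0.28 for Syn2 (DESeq adjusted p 7.06e-11 and 1.10e-12). Syn3, a synapsin known from early neuronal development, had 54.4 in Ret null, 45.1 in Sema3d null, 59.1 in double null and 58.3 in wildtype guts and was not called in any comparison.

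Synaptophysin, encoded by Syp (ENSMUSG00000031144.15, chromosome X, GRCm38 7638471 to 7653256, plus strand), is a membrane protein widely used as a marker of synaptic vesicles. It had 18.3 in Ret null, 54.5 in Sema3d null, 16.04 in double null and 53.6 in wildtype guts. The log2 change was -1.55 ± 0.22 in Ret null guts and -1.74 ± 0.23 in the double null, per the authors' deposited tables (DESeq adjusted p 5.10e-10 and 3.15e-12). Its relatives the synaptogyrins were each called in 1 of these mutants. Syngr3 had 7.06 in Ret null, 18.1 in Sema3d null, 4.06 in double null and 15.04 in wildtype guts, and the authors' deposited tables called it in double null guts (-1.91 ± 0.43, DESeq adjusted p 8.41e-04) but not in Ret null guts (-1.10 ± 0.39, adjusted p 0.136). Syngr1 had 41.8 in Ret null, 72.2 in Sema3d null, 49.5 in double null and 65.5 in wildtype guts. It was called in Ret null guts (-0.65 ± 0.18, DESeq adjusted p 0.0126) and not in double null guts (-0.41 ± 0.18, adjusted p 0.464) in the authors' deposited tables. Neither difference between the mutants was tested directly.

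The SV2 transporter-like proteins of the vesicle membrane divided within their family. Sv2c had 31.9 in Ret null, 51.2 in Sema3d null, 36.6 in double null and 61.7 in wildtype guts, a log2 change of -0.95 ± 0.19 in Ret null guts and -0.76 ± 0.18 in the double null (DESeq adjusted p 4.50e-05 and 0.00246) in the authors' deposited tables. Sv2a, the binding site of the drug levetiracetam, had 399 in Ret null, 378 in Sema3d null, 389 in double null and 345 in wildtype guts. It was the only member with a positive change and an unadjusted p below 0.05 in Ret null guts (0.20 ± 0.08, DESeq adjusted p 0.286, in the authors' deposited table). Sv2b had 53.4 in Ret null, 57.9 in Sema3d null, 65.6 in double null and 58.9 in wildtype guts. The Rab3 GTPases, which mark vesicles ready to dock, had few calls: Rab3c was called in double null guts only (-0.42 ± 0.12, DESeq adjusted p 0.0362, in the authors' deposited table). In Ret null guts Rab3c stood at -0.43 ± 0.14 with an adjusted p of 0.0676 in the authors' deposited table. Its levels were 95.6 in Ret null, 122 in Sema3d null, 96.5 in double null and 129 in wildtype guts. Rab3a, with 76.0 in Ret null, 110 in Sema3d null, 71.8 in double null and 92.3 in wildtype guts, was not called, nor was Rab3b, with 23.4 in Ret null, 28.1 in Sema3d null, 24.4 in double null and 27.96 in wildtype guts. The interval of Rab3a in the authors' deposited tables ran from -0.56 to -0.0014 in Ret null and from -0.64 to -0.08 in double null guts (DESeq adjusted p 0.588 and 0.334). All 12 vesicle proteins together came to 83.0% of wildtype in Ret null guts and 84.7% in the double null.

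**Figure D2:**
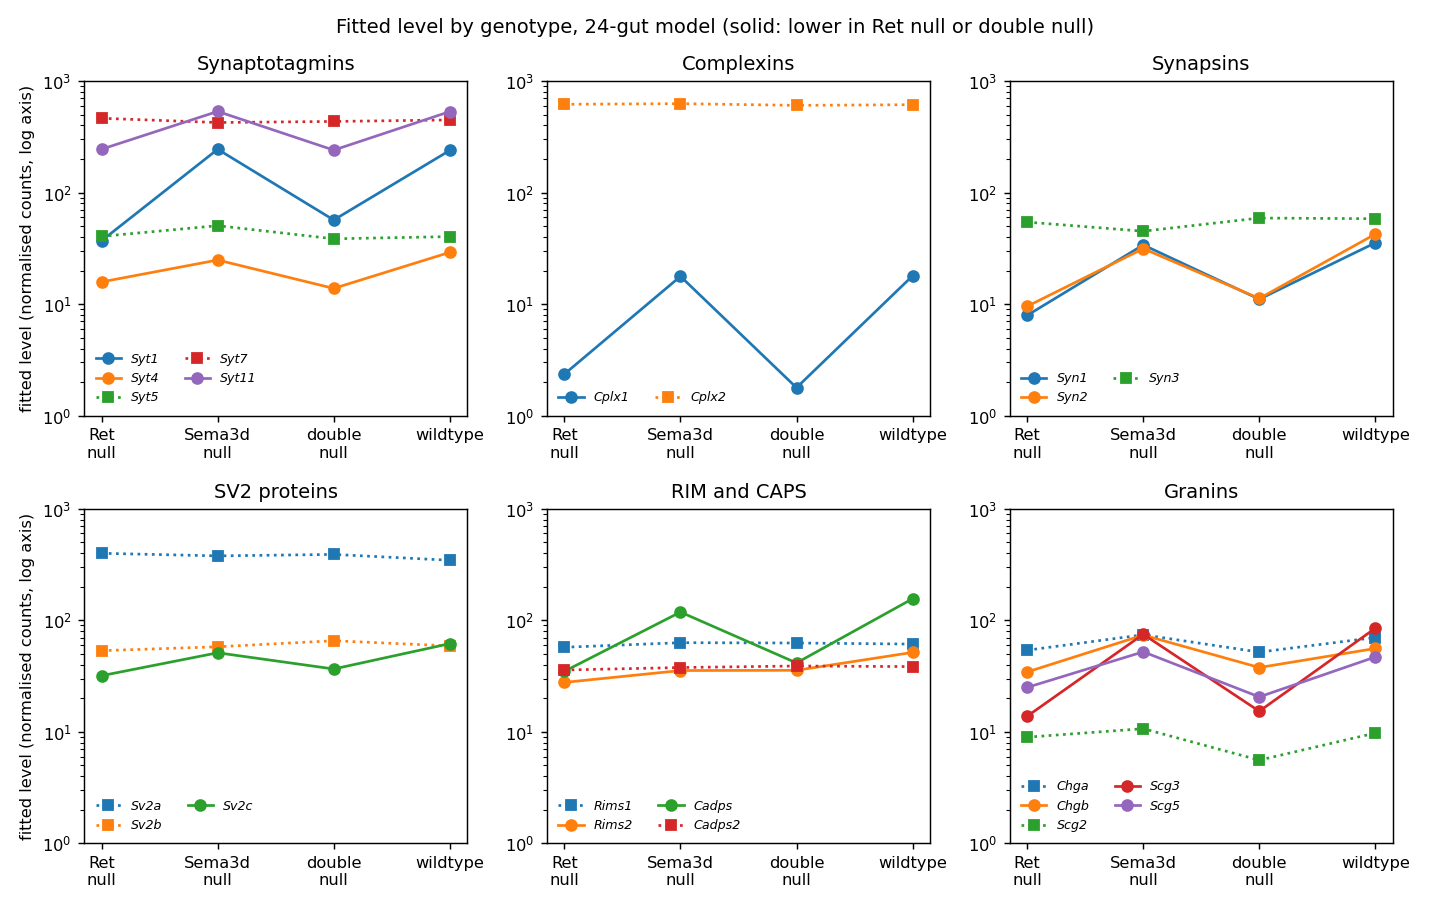
Fitted level in normalised counts (log axis) in Ret null, Sema3d null, double null and wildtype guts for 6 groups of related members; solid lines with circles mark genes lower in Ret null or double null guts, dotted lines with squares the others. Cplx1 has 2.36 in Ret null and 17.9 in wildtype guts, while Cplx2 has 619 in Ret null and 614 in wildtype guts, and lines join genotypes only to guide the eye.

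Of the priming and active zone genes, 5 of 7 were lower in Ret null and 4 of 7 in double null guts. Unc13a (ENSMUSG00000034799.16, chromosome 8, GRCm38 71624417 to 71671757, minus strand), which opens syntaxin so that vesicles can be primed, had 13.6 in Ret null, 58.3 in Sema3d null, 13.3 in double null and 54.5 in wildtype guts. Its change was -2.01 ± 0.24 in Ret null guts and -2.03 ± 0.24 in the double null, per the authors' deposited tables (adjusted p 3.94e-15 and 1.04e-15 from the DESeq deviances). Cadps (ENSMUSG00000054423.13, chromosome 14, GRCm38 12372563 to 12823079, minus strand), a priming factor of dense-core granules, had 34.9 in Ret null, 119 in Sema3d null, 41.5 in double null and 156 in wildtype guts. It changed by -2.16 ± 0.17 in Ret null guts and -1.91 ± 0.17 in the double null (adjusted p 4.36e-35 and 1.99e-28 from the DESeq deviances) in the authors' deposited tables. Its relative Cadps2 had 35.8 in Ret null, 37.7 in Sema3d null, 38.9 in double null and 38.5 in wildtype guts and was not called.

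The giant scaffold proteins of the active zone fell less steeply than Unc13a and Cadps. Bsn, which encodes Bassoon, had 81.3 in Ret null, 136 in Sema3d null, 81.1 in double null and 150 in wildtype guts, with a log2 change of -0.88 ± 0.13 in Ret null guts and -0.88 ± 0.12 in the double null, per the authors' deposited tables. Pclo, which encodes Piccolo, had 168 in Ret null, 175 in Sema3d null, 145 in double null and 261 in wildtype guts. The change of Pclo in the authors' deposited tables was -0.64 ± 0.12 in Ret null guts and -0.85 ± 0.11 in the double null (DESeq adjusted p 1.10e-05 and 7.45e-12). Rims2, a scaffold that ties vesicles to calcium channels, had 27.8 in Ret null, 35.4 in Sema3d null, 35.6 in double null and 51.5 in wildtype guts, and was called in Ret null guts (-0.90 ± 0.26, DESeq adjusted p 0.0265, authors' deposited table). Rims1, of the same family, had 57.3 in Ret null, 63.0 in Sema3d null, 62.6 in double null and 61.2 in wildtype guts and was not called. The 7 genes summed to 54.1% of wildtype in Ret null, 80.9% in Sema3d null and 54.2% in double null guts.

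Recycling genes and synucleins were the role with the fewest calls, 1 of 5 in both mutants that lack Ret. Dnm1, the neuronal dynamin, had 768 in Ret null, 774 in Sema3d null, 767 in double null and 739 in wildtype guts, and its interval in the authors' deposited Ret null table was -0.08 to 0.19. Dnm3 had 134 in Ret null, 159 in Sema3d null, 132 in double null and 158 in wildtype guts and was not called. Amph, the membrane-bending partner of dynamin, had 119 in Ret null, 168 in Sema3d null, 148 in double null and 184 in wildtype guts, and its error of 0.30 in the authors' deposited Ret null table left an interval from -1.20 to -0.01 (DESeq adjusted p 0.575). Sncg, gamma-synuclein, had 22.1 in Ret null, 55.9 in Sema3d null, 23.5 in double null and 41.1 in wildtype guts. It changed by -0.89 ± 0.23 in Ret null guts and -0.81 ± 0.23 in the double null (DESeq adjusted p 0.00554 and 0.0175) in the authors' deposited tables. Sncb, beta-synuclein, had fitted levels of 0.317 in Ret null, 2.31 in Sema3d null, 0.674 in double null and 0.662 in wildtype guts, too few counts to read a change.

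The dense-core granule genes summed to 50.9% of wildtype in Ret null guts and 49.0% in the double null, the lowest share of any role. Scg3 (ENSMUSG00000032181.6, chromosome 9, GRCm38 75643189 to 75684056, minus strand), a granin that draws cargo to the granule membrane, had the largest fall of the 5 in both mutants. Its level was 13.8 in Ret null, 75.0 in Sema3d null, 15.3 in double null and 84.9 in wildtype guts. Its log2 change in the authors' deposited tables was -2.62 ± 0.25 in Ret null guts and -2.47 ± 0.25 in the double null (adjusted p 2.22e-22 and 1.55e-20 from the DESeq deviances). Scg5, the chaperone of a prohormone convertase, had 25.04 in Ret null, 52.2 in Sema3d null, 20.6 in double null and 46.9 in wildtype guts. In the authors' deposited tables it changed by -0.91 ± 0.24 in Ret null guts and -1.19 ± 0.26 in the double null (DESeq adjusted p 0.0101 and 2.97e-04).

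Of the chromogranins, acidic proteins that condense granule content, Chgb alone was called. Chgb had 34.4 in Ret null, 73.7 in Sema3d null, 37.7 in double null and 55.9 in wildtype guts, and was called in Ret null guts (-0.70 ± 0.19, DESeq adjusted p 0.0132, authors' deposited table) but not in double null guts (-0.58 ± 0.19, adjusted p 0.0871). Chga had 53.9 in Ret null, 74.2 in Sema3d null, 51.8 in double null and 70.1 in wildtype guts. Its change of -0.38 ± 0.17 in Ret null guts and -0.44 ± 0.17 in the double null, per the authors' deposited tables, had DESeq adjusted p of 0.423 and 0.257. Scg2, the secretogranin whose promoter holds the CRE printed above, had 8.96 in Ret null, 10.7 in Sema3d null, 5.58 in double null and 9.76 in wildtype guts. At that level its interval in the authors' deposited Ret null table, -0.94 to 0.68, spanned both a fall like that of Scg5 and no change.

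Double null guts were compared with the same 6 wildtype guts, so that comparison and the one for Ret null guts share their controls. In double null guts 18 of 42 members were lower and 0 higher, where 1.87% of the 24663 genes tested were lower and 0.231% higher. The members' median was -0.45, beside 0.01 over genes with a level of at least 50, and 24 members reached an unadjusted p below 0.05, as did 6.71% of all genes. Called lower in both mutants were 16 genes: Syt1, Syt4, Syt11, Snap25, Cplx1, Syn1, Syn2, Syp, Sv2c, Unc13a, Bsn, Pclo, Cadps, Sncg, Scg3 and Scg5. Those called in Ret null guts alone were Napb, Syngr1, Rims2 and Chgb, and those called in double null guts alone were Syngr3 and Rab3c. For each of these 6 the change was also negative in the mutant where it was not called.

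The 22 genes called in either mutant and the 20 called in neither were also set side by side for their abundance in wildtype guts. Per kilobase of exon the median level was 10.5 normalised counts for the called genes and 21.2 for the others, with no test. Vamp2 at 212, Dnm1 at 141, Cplx2 at 125, Syt11 at 102 and Nsf at 76.7 normalised counts per kilobase were the most abundant members on that scale, and of these Syt11 alone was called. Of the 20 genes called in neither, 12 had intervals above -0.5 in both mutants: Syt5, Syt7, Stx1a, Vamp1, Vamp2, Cplx2, Nsf, Syn3, Sv2a, Sv2b, Rims1 and Dnm1. For the other 8, Rab3a, Rab3b, Cadps2, Dnm3, Amph, Sncb, Chga and Scg2, the intervals leave a fall of that size possible in at least 1 of the mutants.

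In Sema3d null guts 0 of the 42 genes was called by the authors' DESeq test, where 0.0404% of the 24747 genes in the table were. The members' median log2 change was 0.02, and the summed level was 6972 in Sema3d null and 6950 in wildtype guts. An unadjusted p below 0.05 was reached by 4 members, and by 4.53% of all genes. These were Pclo (-0.57 ± 0.17, DESeq adjusted p 0.2998), Rims2 (-0.53 ± 0.21, adjusted p 0.884), Cadps (-0.39 ± 0.17, adjusted p 0.993) and Sncg (0.45 ± 0.20, adjusted p 0.999) in the authors' deposited table. The first 3 are priming and active zone genes, and none of the 4 passed the correction. Every member's interval lay above -1 in this comparison, which is above the changes of Syt1, Cplx1 and Scg3 in Ret null guts.

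The interaction term of the 24-gut fit asks whether the double null change differs from the sum of the changes in the single nulls. A positive term means that expression in double null guts lay above that sum. Of the 42 members 0 was called by the authors' DESeq test, beside 0.164% of the 26258 genes tested, and the members' median term was -0.01. An unadjusted p below 0.05 was reached by 5 members, and by 6.79% of all genes. In the authors' deposited table these were Rims2 (0.90 ± 0.40, p = 0.0259), Cadps (0.64 ± 0.30, p = 0.0322), Syt1 (0.58 ± 0.27, p = 0.0306), Syn3 (0.49 ± 0.24, p = 0.0405) and Syngr3 (-1.06 ± 0.54, p = 0.0489), with DESeq adjusted p from 0.637 to 0.729. For Rims2 the 24-gut coefficients of the single nulls sum to -1.43 and the double null change was -0.53. For Syt1 they sum to -2.65 and the double null change was -2.07.

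**Figure D3:**
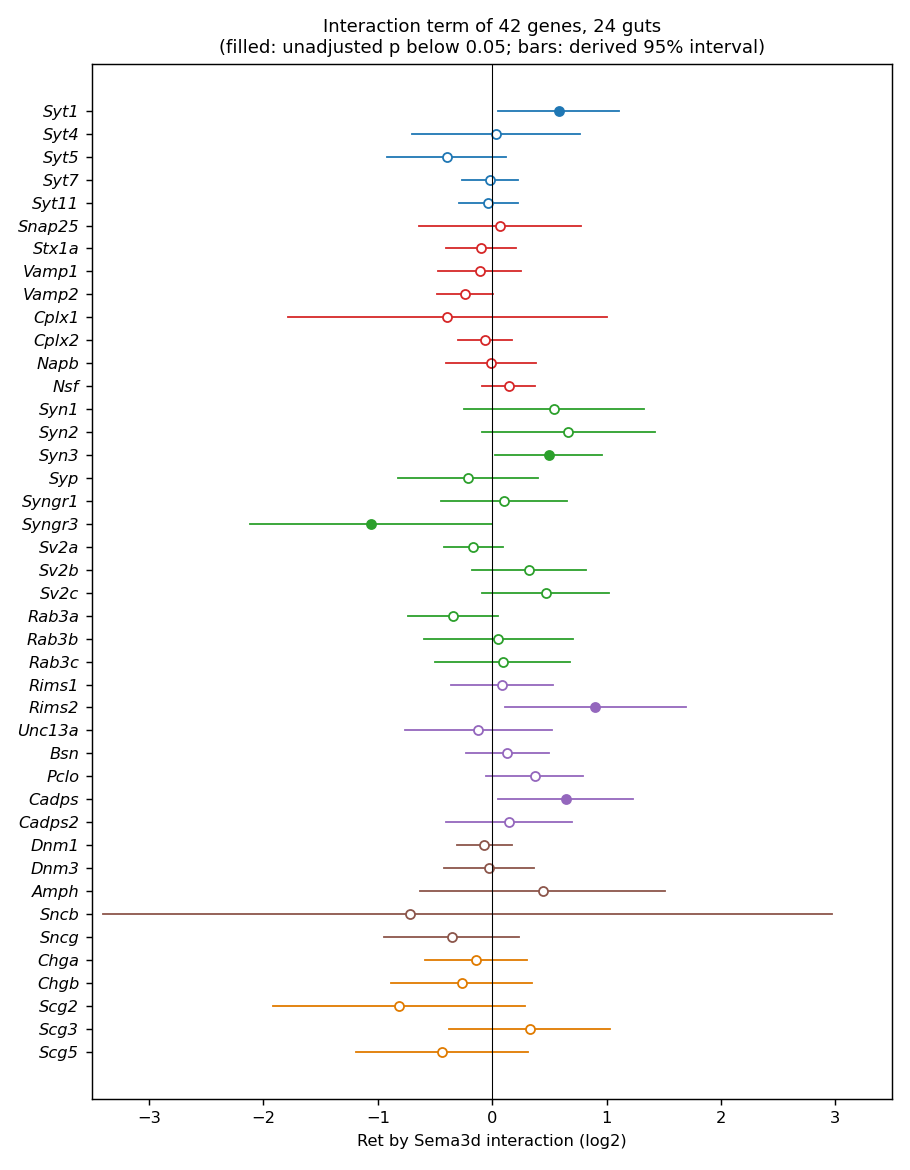
Ret by Sema3d interaction term (log2) of the 42 genes in the 24-gut fit, coloured by role as in the plot of genotype effects. Bars are the derived 95% interval and filled points have an unadjusted p below 0.05. The bar of Sncb, whose interval ran from -4.40 to 2.97, is cut short at its lower end. Terms scatter on both sides of 0, 20 positive and 22 negative, and none has an adjusted p below 0.05.

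Related gene lists place the members among the rest of the release machinery. Of 49 other neuronal release genes in the Ret null table, 11 were lower and 0 higher, with a median of -0.18, and in double null guts 8 of 48 were lower and 0 higher, with a median of -0.09. In the authors' deposited Ret null table these included the vesicular acetylcholine transporter Slc18a3 (-3.10 ± 0.34), the vesicular monoamine transporter Slc18a2 (-1.75 ± 0.17), the endocytic adaptor Snap91 (-1.82 ± 0.19) and the active zone gene Rims3 (-1.20 ± 0.14). Slc18a3 had 4.18 in Ret null, 39.6 in Sema3d null, 2.13 in double null and 36.0 in wildtype guts. Of 25 other granule cargo and processing genes 9 were lower and 0 higher in Ret null guts, with a median of -0.28, and 9 of 24 were lower and 0 higher in double null guts, with a median of -0.19. Some cargo genes fell further than any of the 42 members in the authors' deposited Ret null table, with Vgf at -4.42 ± 0.52, Gal at -4.34 ± 0.41 and Cartpt at -4.05 ± 0.24.

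Broadly expressed relatives of the members, such as Snap23, Stx3, Vamp3, Napa and Dnm2, which serve secretion and membrane traffic in most cells, included 0 called of 30 in any of the 3 genotype comparisons. Syt8, also on this list, had a level below 1 in wildtype guts. Unadjusted p below 0.05 was reached by 4 of the 30 in Ret null, 1 in Sema3d null and 0 in double null guts. Among all genes the shares were 8.43%, 4.53% and 6.71%. Of the 4 in Ret null guts 3 were lower and 1 was higher. The medians of the 30 relatives were 0.01 in Ret null guts and 0.03 in the double null. Their summed level was 16914 in Ret null, 17088 in Sema3d null, 16930 in double null and 16884 in wildtype guts. The members' median of -0.62 lay between that of these relatives and that of enteric neuron genes of other classes. Members and lists were chosen with earlier results of these data known, so this placing is a description and not a test. All 18 enteric neuron genes, the targeted Ret among them, were lower in both mutants, with a median of -4.34 in Ret null guts and -4.59 in the double null. Their changes in Ret null guts ran from -8.34, that of Ret itself, to -0.28, so the 2 sets overlap. Of the 18 neuron genes 14 changed by less than -1, as did 12 of the 42 members. In the authors' deposited Ret null table the neuronal tubulin Tubb3 changed by -5.36 ± 0.12 and the RNA-binding protein gene Elavl4 by -3.21 ± 0.16, so the member with the largest fall, Cplx1 at -2.92 ± 0.47, lay near Elavl4 and well short of Tubb3.

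**Figure D4:**
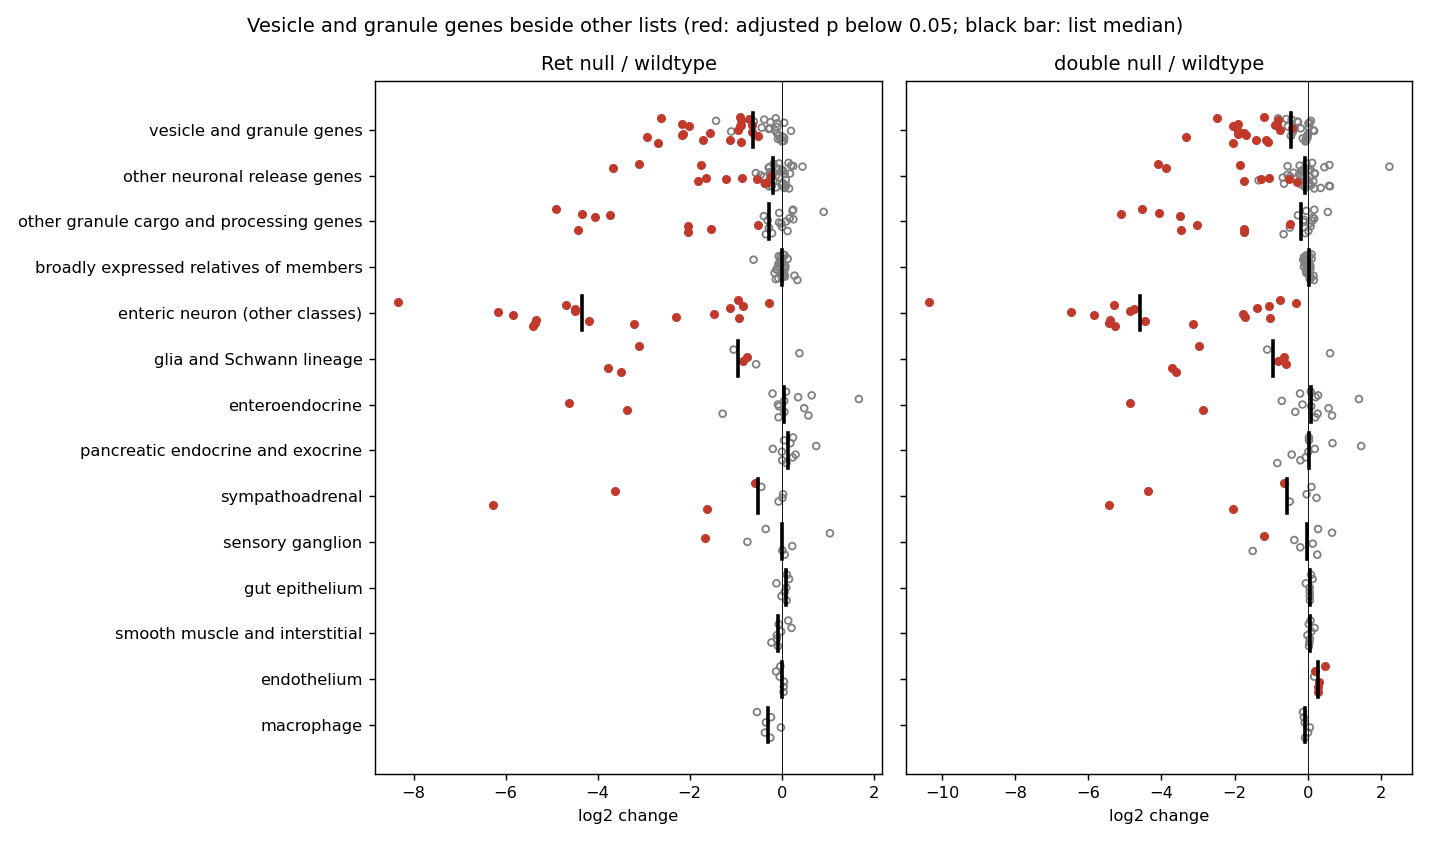
Log2 change in Ret null and double null guts over wildtype guts for the 42 genes (top row) and 13 other gene lists; each point is a gene, red points have an adjusted p below 0.05 and the black bar is the list median. The broadly expressed relatives centre on 0, with medians of 0.01 and 0.03, and the enteric neuron genes have medians of -4.34 and -4.59; the leftmost enteric neuron point is the targeted Ret.

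Several other cell types use members of this set, and their markers were read beside it. Of 15 enteroendocrine genes 2 were lower in Ret null and double null guts, Insm1 and Cck, and the summed level of the list was 75.4% of wildtype in Ret null guts and 73.7% in the double null. Its median log2 change in the authors' deposited tables had the other sign, 0.06 in Ret null guts with 8 of 15 genes positive and 0.09 in the double null with 9 positive. Gip had a level below 1 in wildtype guts, and Gcg, named after its values were seen, had 500 in Ret null, 575 in Sema3d null, 478 in double null and 535 in wildtype guts. Of 8 sympathoadrenal genes 4 were lower in both mutants, Dbh, Slc6a2, Cyb561 and Th, with a summed level of 64.6% in Ret null guts and 64.8% in the double null. Of 10 pancreatic genes 0 was called, with sums of 103% in both, and Ins2 and Slc30a8 were below 1 in wildtype guts. Glia and Schwann lineage genes were lower in 5 of 8 in Ret null and 6 of 8 in double null guts, and their sums were 39.0% and 39.8% of wildtype. The part of these cells in the members' changes was not tested.

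Markers of cells outside the nervous and endocrine systems were also read. Of the 7 epithelial, 8 smooth muscle or interstitial cell and 6 macrophage genes 0 was called in either mutant. The epithelial sums were 104% of wildtype in both, and those of smooth muscle and interstitial cells 96.6% in Ret null guts and 104% in the double null. In Ret null guts 2 of these 8 genes had an unadjusted p below 0.05 and a positive change, and the other 6 had a negative change. All 6 macrophage genes had a negative change in Ret null guts, their median log2 change there being -0.29 (authors' deposited table), and 4 had an unadjusted p below 0.05, beside 8.43% of all genes. The macrophage sum was 83.6% of wildtype in Ret null guts, where that of the members was 81.4%, and 94.7% in double null guts. The part of these cells in the members' changes was not tested either. Among sensory ganglion genes, 1, the sodium channel gene Scn9a, was lower in both mutants. Of 6 endothelial genes 5 were higher in double null guts and 0 in Ret null guts, with sums of 121% in double null and 99.6% in Ret null guts. In Sema3d null guts 0 genes of any of the 13 lists was called, and the number with an unadjusted p below 0.05 was at most 2 in each list.

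Promoter sequence was then compared between the members and all genes of the RefSeq table. Of the 42 members 34 were matched by symbol, and Rims2, Snap25, Syn3, Syngr3, Syt4, Syt5, Syt7 and Vamp2 were not. Windows of 300 bases, from 250 before the start to 50 after it, were searched on both strands, and a gene counted once if any of its windows held the motif. The CRE TGACGTCA stood in 3 of 34 members (8.82%) and in 2.03% of all 27025 genes. Its core TGACG, which lies inside every CRE, stood in 13 members (38.2%) and in 23.0% of all genes. The E-box CAGCTG, of the kind that proneural factors bind, stood in 11 members (32.4%) and in 18.3% of all genes. The GC box GGGCGG, common in CpG-rich promoters, stood in 24 members (70.6%) and in 38.2% of all genes.

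An exact RE1 was found in 0 members and in 0.0777% of all genes. With up to 2 mismatches it stood in 6 members, Scg2, Sncg, Sv2c, Syn1, Syn2 and Vamp1 (17.6%), and in 11.6% of all genes. Of the 18 members with a promoter that were called in either mutant, 2 held a CRE, 7 its core, 5 the E-box, 13 the GC box and 4 a near RE1. Of the 16 called in neither, 1 held a CRE, 6 the core, 6 the E-box, 11 the GC box and 2 a near RE1. No test was made of these counts, and they are too small to show whether any motif is more common on 1 side. A match describes letters in this window and is not evidence of binding, and sites further away were not searched. The printed promoters of Scg3 and Cplx1, the granule and fusion genes with the largest falls, hold a CRE core 30 to 26 bases and an E-box 82 to 77 bases before the start.

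**Figure D5:**
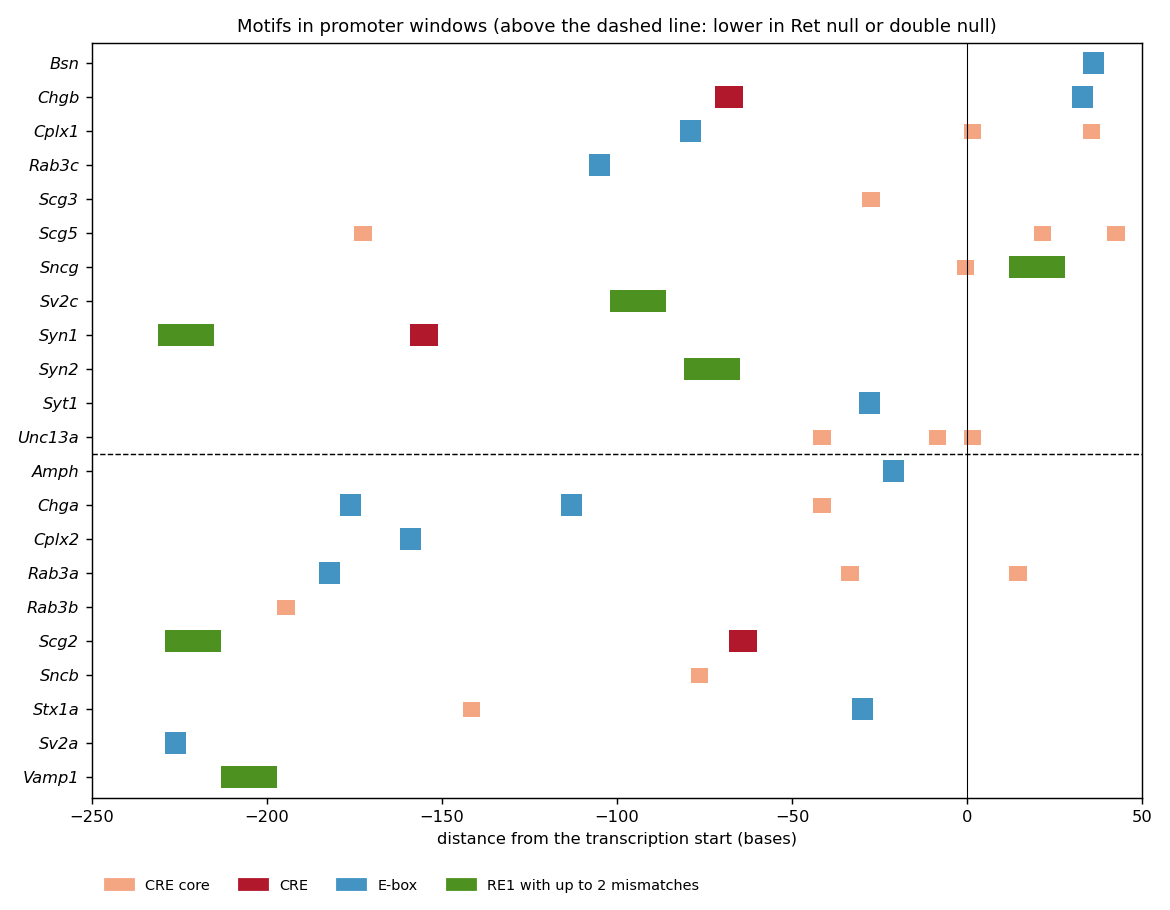
Position of each CRE, CRE core outside a CRE, E-box and near RE1 (bases from the transcription start, at 0) in the promoter windows of members that hold any of them; genes above the dashed line were lower in Ret null or double null guts. A CRE lies in Chgb and Syn1 above the line and in Scg2 below it, and the other motifs occur on both sides.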

How the data were processed

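RNA was measured in 24 whole guts by stranded poly-A sequencing with paired reads of 100 bases. The submitters' processing notes name FastQC 0.11.5, Trimmomatic 0.36, STAR (version not given in the sources used here), RSEM 1.2.31, DESeq 1.24.0 and the build GRCm38/mm10, without roles or order. The authors deposited 4 tables of generalised linear model fits, per the file headers, 3 of 12 guts each (a mutant genotype against wildtype) and 1 of all 24 guts with an interaction term. Each holds log2 coefficients deposited for the intercept, sex and genotype. The header names no logarithm base, and base 2 was judged from the fitted levels, whose sum per table would exceed the targeted library depth if they were natural logarithms. Each also holds model deviances, which the authors deposited as unbounded scores, and p-values with adjusted p-values, which the authors deposited for the genotype or interaction term. In the Ret null table the headings of gene name and gene type are exchanged, and columns were read by content. Recomputed chi-square p-values (1 degree of freedom) and Benjamini-Hochberg adjustments matched the deposited ones within 4.91e-09 and 2.51e-13.

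From these values were computed the level (2 to the power of the summed coefficients), the error of a coefficient (the coefficient over the root of the drop in deviance, without its sign), its 95% interval and the sums and medians of gene lists. The error, its interval, the calls and the Benjamini-Hochberg adjustment were checked on simulated counts. Each simulated gene was refitted with the same dispersion (extra spread of counts between guts) that its counts were drawn with. The check therefore cannot show how estimating the dispersion from the guts affects the intervals or the calls. Levels, sums and medians were not checked in this way. Tests for counts, planned in case counts per library were given, and leaving out replicates were not run, since the tables hold no values per library. Sex was a term of the authors' models, and 4 of 4 Y-linked genes were higher in the sex coded by it, which was therefore read as male. Gene coordinates and exon lengths came from GENCODE M21 on GRCm38, in which 26080 of 26260 gene IDs were found. The sources used here do not name the authors' annotation release. Promoters came from the RefSeq table on GRCm38.p6, in which 34 of 42 members were found, 4 of them with more than 1 promoter.

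All 42 members could be named, and from other lists up to 4 genes with the smallest p. The members, the roles and the lists of other genes were chosen with earlier results of these data known. Alternatives tried were other thresholds on the adjusted p, adjustment over genes with a level of at least 50 or over protein-coding genes, members of that level alone, centring on the median of all genes, and coefficients of the 24-gut table. Python 3.11.15, pandas 2.3.3, numpy 2.4.6, scipy 1.17.1 and matplotlib 3.10.9 were used.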

Additional observations from a re-analysis of the deposited data

How the results depend on the processing

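The count of members lower in Ret null guts was 20, and from 14 to 21 under the other thresholds and adjustments. In double null guts it was 18, and from 16 to 20 except when adjustment was made over genes with a level of at least 50 normalised counts, where it was 11. That setting leaves out 8 called members below this level (Syngr3, Syn2, Sncg, Scg5, Syt4, Snap25, Cplx1 and Syn1) and adds Napb. In Ret null guts the same setting gave 14 and left out the same genes apart from Syngr3, which was not called there, and added Rab3c. No member was called in Sema3d null guts or for the interaction under any setting tried. The members' median log2 change in Ret null guts was -0.62, and -0.43 over the 29 members with a level of at least 50. Centring on all genes or taking the 24-gut coefficients gave -0.63 each. In double null guts it stayed between -0.41 and -0.45. All 132 single coefficients compared (the 42 members, Ret and Sema3d in 3 comparisons) were within 1 derived error in the 24-gut table, with a median difference of 0.00245. At an adjusted p below 0.01, Syngr1, Scg5, Syt4, Chgb, Napb and Rims2 were no longer called in Ret null guts, nor Rab3c and Sncg in double null guts. No paired analysis was possible because the deposited tables hold no values per library, and leaving out single guts was not possible for the same reason. Depth per library is unknown from these tables; Sncb, Cplx1 and Scg2 have the widest errors in the Ret null table.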

Other observations

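Double null and Ret null guts differ by the Sema3d alleles, and the 24-gut table gives that difference without a p-value. It was within 0.5 on the log2 scale for 38 of the 42 vesicle and granule genes. Beyond that lay Syt1 at 0.62 (56.8 normalised counts in double null and 37.1 in Ret null guts), Syngr3 at -0.80 (4.06 in double null and 7.06 in Ret null guts), Scg2 at -0.68 (5.58 in double null and 8.96 in Ret null guts) and Sncb, whose levels were below 1 in both. Over the 42 genes 22 differences were positive, with a median of 0.02.

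The sex coefficient of the 24-gut table, male over female, was positive for 27 of the 42 genes in the authors' deposited table, and was not tested here. It exceeded 0.3 in size for Syn2 (0.55), Scg3 (0.37) and Sncb (-0.46), and for the remaining 39 it lay within 0.3.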
